A study of Mus musculus with 10 samples.

Results

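Nucleotide conversion marks RNA made during a labelling pulse, and 2 conversion chemistries were compared here on labelled RNA of 1 cell line. The comparison was of 2 libraries converted by TUC-seq, lettered A and B, with the 2 libraries converted by SLAM-seq that carry the same letters, 4 of the 10 libraries of the series. Members were chosen by chemistry and letter from the sample titles. Of 17053 Ensembl genes in the table, 12218 could be tested by their read counts, and 9956 had 100 or more counts in all 4 libraries and were compared by the share of new RNA. All of the 9956 were also among the genes tested by counts. The questions were which genes the chemistries measure differently, and whether differences in counts go together with differences in the share of new RNA.

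All libraries came from wild-type NIH-3T3, a line of mouse embryonic fibroblasts, and total RNA was taken in every group. TUC and SLAM cells both received 800 µM 4-thiouridine (4sU) for 2 h, as did the 2 libraries of the unconverted 4sU group. The other controls were 2 libraries of cells given 800 µM uridine and 2 of untreated cells. Whether the letters are separate cultures is not stated in the labels, and the p-values below cover only the spread among these libraries, which may be technical. All 10 fibroblast markers passed the filter on low counts. Of markers of macrophages, endothelium, epithelium and muscle or fat, 3, 2, 0 and 2 genes passed it.

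In cells, 4sU enters RNA in place of some uridines while it is transcribed. In SLAM-seq, iodoacetamide alkylates the thiol of 4sU, so that reverse transcriptase pairs it with guanine and the base is read as cytosine. In TUC-seq, osmium tetroxide with ammonium chloride turns 4sU into cytidine, a natural base. In both, T-to-C mismatches in reads tell new RNA from RNA made before the pulse, and the share of a gene's RNA that is new is its new-to-total RNA ratio (NTR). Genes whose transcripts turn over fast, such as immediate-early transcription factors, have an NTR near 1 after a short pulse, and long-lived transcripts, such as those of ribosomal proteins, a low one.

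The 4 libraries held 27166279 (TUC A), 31070858 (TUC B), 30903222 (SLAM A) and 33751151 (SLAM B) gene counts, and the other 6 lay between 27094222 and 33785682. Levels are given as CPM, counts scaled to the total of each library, after TMM scaling, which corrects for library composition. Sequencing measures shares of the RNA in a library, so fewer cells and less RNA per cell cannot be told apart. Differences between letters were large. Within a chemistry, the median absolute log2 CPM ratio of B over A was 0.17 for TUC and 0.23 for SLAM, against 0.14 (letter A) and 0.12 (letter B) for TUC over SLAM. The difference of A and B was shared by the groups, with correlations of 0.583 to 0.69 in the 10 pairs of groups over all genes tested, so TUC and SLAM were compared within letter.

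In counts, 2458 of 12218 genes (20.1%) differed between TUC and SLAM at an adjusted p under 0.05 (edgeR quasi-likelihood test over all 10 libraries with the letter as a block, Benjamini-Hochberg adjustment). Of all genes tested, 1223 (10%) were higher in TUC and 1235 (10.1%) were lower. Calls were more frequent at greater depth. With 100 to under 300 counts in the lowest of the 4 libraries 12.7% of genes were called, and with 3000 or more counts 32.8%. The part of depth in the list counts below was not tested. Most differences were small: 68 of the higher and 113 of the lower genes passed 1.5-fold. Only 24 of these 68 and 50 of these 113 had 100 or more counts in all 4 libraries. Every call rests on the pairing by letter. Without the replicate block no gene passed the adjusted threshold, with 1205 genes at an unadjusted p under 0.05, and DESeq2 with the block called 1844. Without TUC A 950 genes were called and without TUC B 1025, of which 926 and 995 were among the 2458, all in the same direction.

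**Figure D1:**
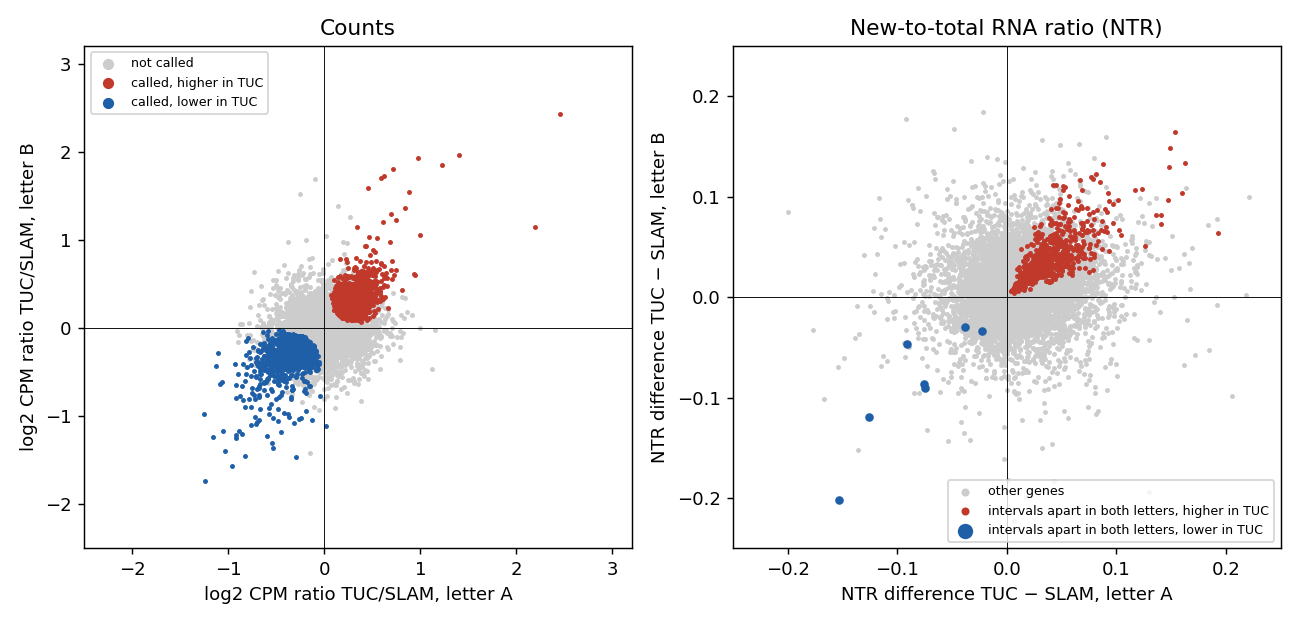
Left, log2 CPM ratio of TUC over SLAM in letter A (x axis) and letter B (y axis) for 12218 genes, with called genes in red (higher in TUC) and blue (lower in TUC). Right, NTR difference TUC minus SLAM in letter A and letter B for 9956 genes, with genes whose 90% intervals lie apart in both letters in red (656 higher in TUC) and blue (7 lower in TUC). Counts repeat between letters (Spearman 0.565 across genes) more closely than NTR differences do (0.228).

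The plot of both letters shows that the count difference of a gene in letter A goes with that in letter B. Over the 9956 genes with enough reads, Spearman's correlation across genes of the 2 log2 ratios was 0.565. The genes are points of the same 4 libraries and are not independent replicates. The central 95% of genes lay between -0.45 and 0.39 in letter A and between -0.38 and 0.41 in letter B.

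Among genes with an established name, the nuclear noncoding RNA Malat1 was the furthest above SLAM in TUC. Malat1 stood at 792 CPM in TUC A and 799 CPM in TUC B, against 173 CPM in SLAM A and 361 CPM in SLAM B. Both TUC libraries lay above both SLAM libraries, and the log2 fold change was 1.73 ± 0.20 (SE), with an adjusted p of 5.8e-05 from the same edgeR fit. Unconverted 4sU libraries held 477 CPM (A) and 1122 CPM (B), so the TUC libraries lay between them and the SLAM libraries below both. Malat1 contains the small RNA Mascrna, and the sources used here do not give the rule for reads that overlap more than 1 gene.

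Of the next highest, 3 had an NTR near 1. Mir17hg, the host transcript of the miR-17 to miR-92 cluster, had 22.3 and 30.6 CPM in TUC A and B, against 13.1 and 19.3 CPM in SLAM A and B. Mybl1, a transcription factor of the MYB family, had 7.55 and 12.6 CPM in TUC, against 5.06 and 7.26 CPM in SLAM. For these and for Fam126b (12.2 and 22.5 CPM in TUC, against 8.41 and 11.96 CPM in SLAM) the libraries of letter B stood above those of letter A in both chemistries, and groups did not overlap. Their log2 fold changes were 0.71 ± 0.09, 0.71 ± 0.12 and 0.75 ± 0.11. Their NTR was at or above 0.936 in all 4 libraries.

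Another 3 had a low NTR. Cops9, a subunit of the COP9 signalosome, had 62.1 CPM in both TUC libraries, against 40.3 and 38.1 CPM in SLAM A and B, with NTR of 0.122 to 0.137 in the 4 libraries. Rps27l, a ribosomal protein related to Rps27, had 150 and 124 CPM in TUC, against 108 and 70.2 CPM in SLAM. Usmg5, a small membrane subunit of the ATP synthase, had 94.0 and 74.1 CPM in TUC, against 60.01 and 47.9 CPM in SLAM. Tmem263, Taf13 (a subunit of the general transcription factor TFIID) and Mzt1 (a small protein of the gamma-tubulin ring complex) completed the 10, with log2 fold changes of 0.67, 0.63 and 0.67. In all 10, both TUC libraries lay above both SLAM libraries, which the choice of genes required, and adjusted p lay between 4.2e-06 (Tmem263) and 0.00068 (Mybl1). Usmg5 overlaps Taf5 and Mzt1 overlaps Bora in the RefSeq annotation.

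At the other end, Fam122a, an inhibitor of protein phosphatase 2A, had 5.37 and 4.01 CPM in TUC A and B, against 11.5 and 11.3 CPM in SLAM A and B. Its log2 fold change was -1.30 ± 0.12, with an adjusted p of 9.2e-06, and the unconverted libraries had 3.67 and 3.53 CPM. Rsc1a1 had 11.7 and 10.4 CPM in TUC, against 21.6 and 24.6 CPM in SLAM and 11.4 and 12.7 CPM without conversion. In the annotation Fam122a overlaps Pip5k1b, Rsc1a1 overlaps Ddi2 and Ccdc85b overlaps Fosl1, so their values are uncertain. Ccdc85b had 29.4 and 24.75 CPM in TUC, against 48.8 and 50.2 CPM in SLAM.

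Further genes below SLAM in TUC were Zfp955a and Zfp869 (zinc finger genes), Ppp2r3d (a regulatory subunit of protein phosphatase 2A), Zbed5, Zfpm1 (a cofactor of GATA factors) and Atn1 (atrophin 1, a corepressor). Their log2 fold changes ran from -1.01 (Zfp955a) to -0.72 (Zfp869). Atn1 had 87.6 and 129 CPM in TUC A and B, against 145 and 220 CPM in SLAM A and B. Hspa4, a chaperone of the Hsp110 family, had 347 and 259 CPM in TUC, against 517 and 511 CPM in SLAM. Hspa4 stood apart among these 10, since the unconverted libraries, at 557 and 540 CPM, lay near SLAM and not near TUC.

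**Figure D2:**
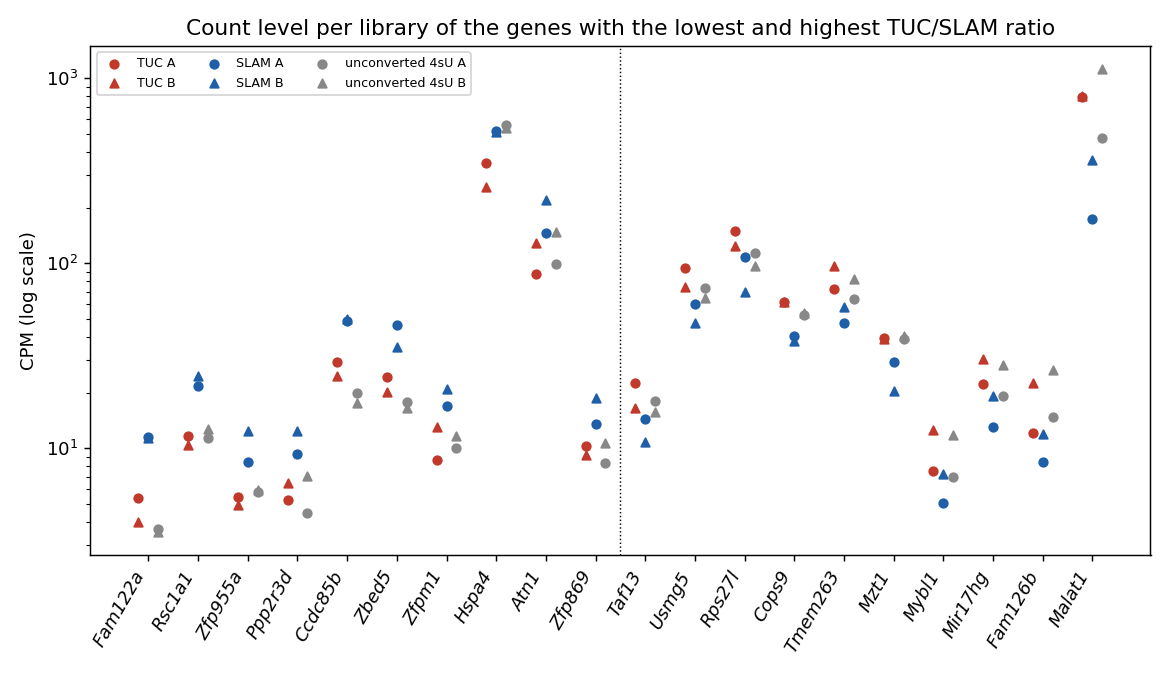
CPM on a log scale in each library of the 10 named genes with the lowest (left of the dotted line) and the 10 with the highest TUC over SLAM ratio, with TUC in red, SLAM in blue and unconverted 4sU in grey (circles letter A, triangles letter B). TUC points lie nearer the unconverted ones than SLAM points do for 18 of 20 genes, the exceptions being Hspa4 and Rps27l.

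The unconverted libraries give a level without either chemistry, and both chemistries are set against the same 2 libraries. On the log2 CPM scale, TUC lay nearer to them than SLAM did for 18 of the 20 genes above, the exceptions being Hspa4 and Rps27l. Over all 12218 genes tested TUC was nearer for 60.9%, and the median absolute log2 ratio to unconverted RNA was 0.14 for TUC and 0.18 for SLAM. Of the 1235 genes lower in TUC, TUC was nearer for 81.9%, with a median log2 ratio to unconverted RNA of 0.01 for TUC and 0.31 for SLAM. Of the 1223 genes higher in TUC it was nearer for 68.7%, with medians of 0.05 for TUC and -0.25 for SLAM. These shares are descriptions and were not tested.

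Predicted genes and pseudogenes held some of the widest differences, and those named here were chosen after their values were seen. Gm42418, which overlaps AY036118 at a locus known to hold ribosomal RNA sequence, had 19.1 and 6.94 CPM in TUC A and B, against 3.08 and 0.881 CPM in SLAM A and B (log2 fold change 2.71 ± 0.23). The processed copy Rpl7a-ps3 went the other way, with 10.5 and 5.48 CPM in TUC, against 25.6 and 19.4 CPM in SLAM and 5.23 and 4.16 CPM without conversion. Of 91 tested genes that RefSeq lists as pseudogenes, 17 were higher (18.7%) and 22 lower (24.2%) in TUC, against 10% and 10.1% of all genes tested. Past 1.5-fold, 5 were higher (5.5%, against 0.557% of all genes tested) and 19 lower (20.9%, against 0.925%). Of 198 long noncoding RNAs, 16 were higher (8.08%) and 2 lower (1.01%) in TUC, against 10% and 10.1% of all genes tested. Reads of such copies can come from their parent genes, and their values are uncertain for that reason.

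Among gene groups, splicing factors, the SR and hnRNP proteins that select splice sites, had the largest share of higher genes. Of the 43, 24 rose in TUC (55.8%), 4 fell (9.3%) and 15 did not pass, against 10% and 10.1% of all genes tested. Their median log2 fold change was 0.19, against a median of 0.00 over all genes tested. Srsf3 had 564 and 488 CPM in TUC A and B, against 425 and 352 CPM in SLAM A and B. Srsf1 had 512 and 506 CPM in TUC, against 392.2 and 370 CPM in SLAM, and Hnrnpa1 had 1492 and 1158 CPM in TUC, against 1120 and 908 CPM in SLAM. All 3 lay higher in both TUC libraries, by log2 fold changes of 0.44, 0.42 and 0.38. Clk1, a kinase of SR proteins, followed at 0.41. Summed over the list, TUC held 15580 and 15290 CPM, SLAM 13830 and 13880 CPM and unconverted RNA 15890 and 16190 CPM.

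Nuclear-encoded genes of oxidative phosphorylation also rose in TUC: 31 of 71 were higher (43.7%) and the other 40 did not pass. Shares over all genes tested were 10% higher and 10.1% lower. The median log2 fold change of the list was 0.17. Without SLAM B 24 were called higher and 4 lower. Cox6c, a subunit of cytochrome c oxidase, had 185 and 168 CPM in TUC A and B, against 121 and 113 CPM in SLAM A and B. Ndufa1, a subunit of complex I, had 44.0 and 48.4 CPM in TUC, against 30.7 and 29.9 CPM in SLAM. Both groups stood clear of each other for both genes, with log2 fold changes of 0.60 ± 0.05 and 0.61 ± 0.08, and Cox7c and Ndufa5 rose by 0.52 and 0.49. Summed over the list, TUC held 12820 and 10960 CPM, SLAM 12290 and 9723 CPM and unconverted RNA 10990 and 9555 CPM, nearer SLAM. Without TUC A 15 members were called higher and without TUC B 16.

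Cytosolic ribosomal proteins showed the same direction at a smaller size: 28 of 79 were higher (35.4%) and 1 was lower (1.27%). Shares over all genes tested were 10% and 10.1%. The median log2 fold change of the list was 0.13. Rpl30 had 652 and 494 CPM in TUC A and B, against 428 and 324 CPM in SLAM A and B, a log2 fold change of 0.61. Rpl35a, Rps27a and Rpl27 rose by 0.50, 0.42 and 0.38. The libraries of letter A were above those of letter B in both chemistries, with list sums of 95280 and 76670 CPM in TUC, against 94190 and 67130 CPM in SLAM, so the sum of 1 TUC library lay between the SLAM libraries. Unconverted RNA, at 79490 and 64780 CPM, lay nearer SLAM in both letters. The count was 15 higher without TUC B, 46 higher without SLAM A, and 22 higher with 12 lower without SLAM B. Many of these genes have near-identical processed copies, and their counts depend on how shared reads were split.

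**Figure D3:**
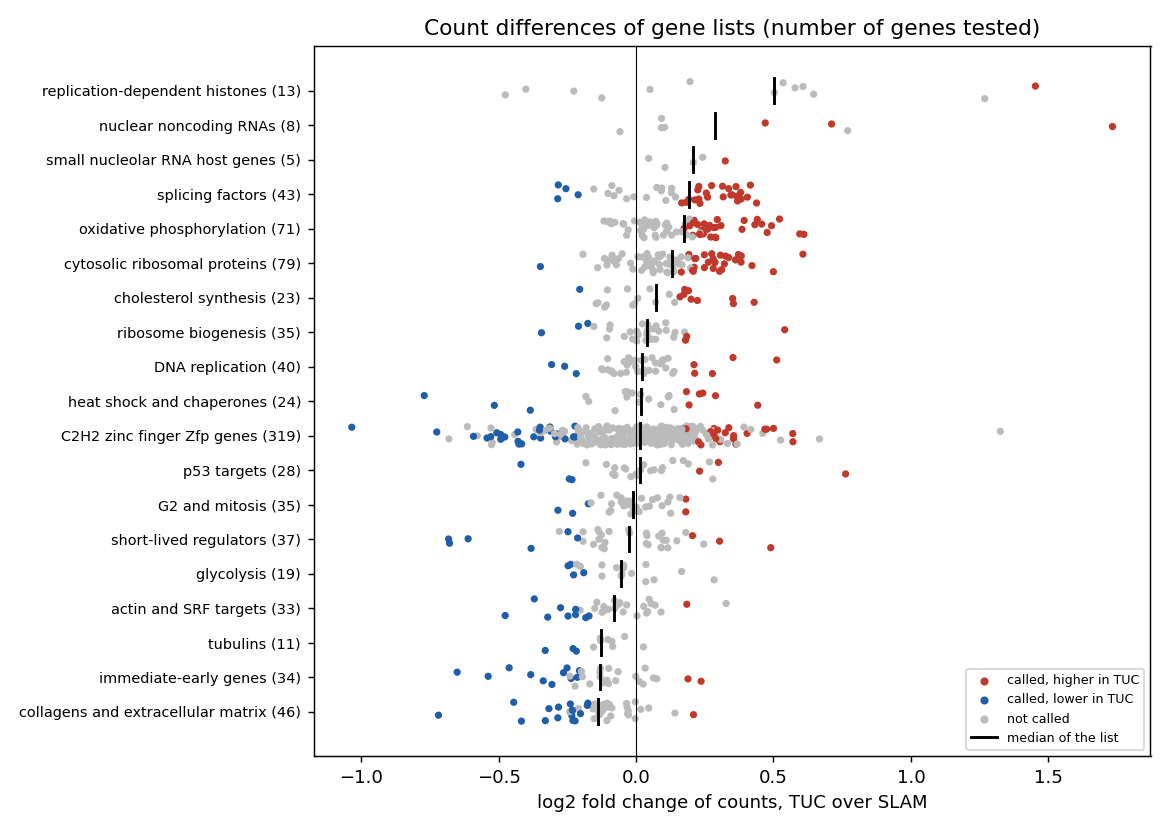
Log2 fold change of counts, TUC over SLAM (x axis), for each tested gene of 19 gene lists (points; red called higher in TUC, blue called lower, grey not called), with the median of each list as a black bar and the number of tested genes in brackets. Splicing factors, oxidative phosphorylation and ribosomal proteins lie to the right of 0, and extracellular matrix and immediate-early genes to the left.

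Genes of collagens and the extracellular matrix lay on the other side: 16 of 46 fell in TUC (34.8%) and 1 rose (2.17%). Shares over all genes tested were 10.1% and 10%. The median log2 fold change of the list was -0.14. Col1a1, the main chain of type I collagen, had 1501 and 2037 CPM in TUC A and B, against 2401 and 3443 CPM in SLAM A and B, and 1543 and 2079 CPM without conversion. The TUC libraries lay below both SLAM libraries and close to the unconverted ones, at -0.72 ± 0.07 in log2 fold change, with an adjusted p of 5.2e-06. Loxl1, which crosslinks elastin, had 250 and 309 CPM in TUC, against 374 and 383 CPM in SLAM. Hspg2 (perlecan) fell by 0.42 on the log2 scale, but its call was lost without either TUC library, without SLAM B and with DESeq2. The count of lower genes was 5 without TUC B, 11 without TUC A and 25 without SLAM A. Of the 10 fibroblast markers, 5 fell, Col1a1, Col1a2 and Fn1 among them, and S100a4 rose. The calls of Col1a2 and S100a4 were lost without TUC A and those of Col1a2 and Fn1 without TUC B, where 1 marker fell.

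Immediate-early genes, transcription factors induced within minutes of growth signals, fell in 11 of 34 cases (32.35%) and rose in 2 (5.88%). Shares over all genes tested were 10.1% and 10%. The median log2 fold change of the list was -0.13. Myc had 79.7 and 77.1 CPM in TUC A and B, against 116 and 101 CPM in SLAM A and B. Jund had 49.4 and 54.5 CPM in TUC, against 85.7 and 66.1 CPM in SLAM. Both were lower in both TUC libraries, with log2 fold changes of -0.46 and -0.54, and Fosl1 followed at -0.38 (it overlaps Ccdc85b). Klf2 had -0.65, a call that was lost without TUC A, and Jun -0.21, likewise lost without TUC A. Fos had 3.76 and 3.34 CPM in TUC, against 4.34 and 3.41 CPM in SLAM, and was not called. The count of lower genes was 5 without TUC A.

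Of 37 other short-lived regulators, 6 fell (16.2%) and 3 rose (8.11%), against 10.1% and 10% of all genes tested, and 5 rose without either SLAM library. Socs1, a feedback inhibitor of cytokine signalling, had 8.36 and 8.63 CPM in TUC A and B, against 14.5 and 12.9 CPM in SLAM A and B. The transcription factor Cebpb had 204 and 246 CPM in TUC, against 391 and 328 CPM in SLAM, and Snai1, a repressor of epithelial genes, 52.9 and 78.4 CPM in TUC, against 88.4 and 110 CPM in SLAM. All 3 lay lower in both TUC libraries. Skil, a repressor of TGF-beta signalling, rose by 0.49 on the log2 scale, with 54.5 and 61.2 CPM in TUC, against 35.1 and 47.7 CPM in SLAM.

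Of 28 targets of p53, 3 rose and 3 fell (10.7% each), near the 10% and 10.1% of all genes tested. Without TUC A 1 rose and 0 fell, and without TUC B 1 rose and 1 fell. Trp53inp1, which promotes p53-dependent death, had 13.0 and 24.6 CPM in TUC A and B, against 7.79 and 14.4 CPM in SLAM A and B (log2 fold change 0.76). Cdkn1a, the p21 inhibitor of cyclin-dependent kinases, had 240 and 246 CPM in TUC, against 234 and 231 CPM in SLAM, and Mdm2, the ubiquitin ligase of p53, 119 and 150 CPM in TUC, against 106 and 140 CPM in SLAM. Neither passed the test, at adjusted p of 0.39 and 0.22.

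Of actin and serum response factor target genes, 9 of 33 fell (27.3%) and 1 rose (3.03%). For this list and the next 2, the shares over all genes tested were 10.1% lower and 10% higher. Zyx (zyxin of focal adhesions) stood at -0.48 and Actn1 (alpha-actinin) at -0.37 in log2 fold change. Zyx had 699 and 791 CPM in TUC A and B, against 1055 and 1014 CPM in SLAM A and B. The count of lower genes was 5 without TUC A, 4 without TUC B and 14 without SLAM B. Of 11 tubulins, 3 fell and the others did not pass, and 1 or fewer fell without SLAM A or either TUC library, against 7 without SLAM B. Cholesterol synthesis genes rose in 9 of 23 cases and fell in 1, led by Hmgcs1 with 586 and 580 CPM in TUC, against 446 and 421 CPM in SLAM, and the count of higher genes was 3 without either TUC library.

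The lists of zinc finger, ribosome biogenesis, DNA replication and mitosis genes had counts near the 10% higher and 10.1% lower of all genes tested. Of 319 C2H2 zinc finger genes, 23 rose and 25 fell. Of 35 ribosome biogenesis genes 3 rose and 3 fell, of 40 DNA replication genes 5 rose and 3 fell, and of 35 genes of G2 and mitosis 2 rose and 3 fell. Heat shock genes rose in 6 of 24 cases and fell in 3, more often than all genes, with a median log2 fold change of 0.02. Glycolysis genes fell in 4 of 19 cases (21.05%), more often than all genes, and rose in 0. Abundant genes were called more often in both directions: of the 1991 compared genes with the highest mean CPM, 16.8% were higher and 17.5% lower. Of 13 replication-dependent histones 1 rose, Hist1h1e, at under 1 CPM in all 4 libraries, and its call was lost with any 1 of the 4 libraries left out and with DESeq2. Of 5 small nucleolar RNA host genes 1 rose, Snhg12, a call lost without TUC B. The median log2 fold changes of these short lists were 0.50 and 0.21. The 4 glycolysis calls were lost when either TUC library was left out. Zinc finger genes called higher numbered 4 without TUC A, 5 without TUC B and 41 without SLAM B, and heat shock genes called higher numbered 2 without TUC A. Of 8 nuclear noncoding RNAs, 3 rose (Malat1, Mir17hg and Neat1), a share of 37.5%, above that of all genes. The other 5 did not pass, and the median was 0.29. Neat1, the scaffold of paraspeckles, differed more between letters than between chemistries, with 224 and 937 CPM in TUC, against 162 and 676 CPM in SLAM, and its call was lost without TUC B and with DESeq2.

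Actb and Gapdh, often used as internal references, had log2 fold changes of -0.22 and -0.20. Actb had 4564 and 4369 CPM in TUC A and B, against 5578 and 4835 CPM in SLAM A and B, a difference with an SE of 0.06 and an adjusted p of 0.025. Its call was lost without SLAM A or either TUC library and in the fit of the 4 libraries alone. Gapdh had 3160 and 2400 CPM in TUC, against 3992 and 2493 CPM in SLAM, and did not pass the test, at an adjusted p of 0.076.

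The share of new RNA was higher in TUC by a small margin. The median NTR over 9956 genes was 0.541 in TUC A and 0.627 in TUC B, against 0.520 in SLAM A and 0.609 in SLAM B. Each TUC library was above the SLAM library of its letter, but SLAM B was above TUC A. The median difference TUC minus SLAM was 0.0104 in letter A and 0.0089 in letter B, 0.00965 for the mean of both, and 70.1% of genes had a mean difference above 0. Letters differed more than chemistries: B was above A by a median of 0.0476 in TUC and 0.0495 in SLAM. The median NTR of unconverted 4sU libraries was 0.0194 and 0.0177, and of uridine libraries 0.0142 and 0.01, near 0 in all 4.

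The deposited 0.05 and 0.95 quantiles bound the error of estimation in each library. These intervals of TUC and SLAM lay apart with TUC higher for 1403 genes in letter A and 1417 in letter B, and with TUC lower for 99 and 158 genes. They lay apart in both letters and in the same direction for 656 genes higher in TUC (6.59%) and for 7 genes lower in TUC (0.0703%), and in opposite directions for 12. As a yardstick, intervals of letters B and A lay apart for 52.95% of genes in TUC and 54.95% in SLAM. Nearly all of these were higher in B, 5194 against 78 lower in TUC and 5399 against 72 in SLAM. The yardstick thus includes a shift between letters that the comparison within letter leaves out. Since the intervals hold the error of estimation only, those that lie apart within 1 letter do not show a difference beyond the spread between replicates. When intervals were shifted so that library medians coincide, 135 genes were higher and 120 lower in TUC, a balance that the shift itself largely sets.

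The test over libraries called 0 genes (0%) by NTR, both on the NTR as deposited and relative to each library's median (limma on the log2 odds with the letter as a block, Benjamini-Hochberg adjustment). At an unadjusted p under 0.05 there were 928 genes, 662 higher and 266 lower in TUC, and relative to the median 728. The smallest adjusted p were 0.51 and 0.67. The fit has 1 residual degree of freedom among the 4 libraries, and NTR differences repeated poorly between letters, with Spearman correlations across genes of 0.160 on the log2 odds scale and 0.228 on the NTR itself. On the log2 odds scale the correlation was 0.228 at a minimum of 500 counts in all 4 libraries and 0.288 at 1000.

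Whether intervals lie apart depends on depth. With 100 to under 300 counts in the lowest of the 4 libraries, 0.564% of 1596 genes had NTR intervals apart and TUC higher in both letters, and with 3000 or more counts 25.4% of 1771 genes. The median NTR difference was 0.00775 in the low-count genes and 0.0115 in the high-count genes. At the read minimum itself, 99 genes with 100 to 110 counts had a median interval width of 0.134 and 103 genes with 90 to 99 counts, which were left out, one of 0.136.

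The NTR difference varied with the NTR itself. Genes were sorted by mean NTR into 5 groups of equal size. In the middle group (0.469 to 0.688), the median difference TUC minus SLAM was 0.0190, and in the lowest group (up to 0.278) it was 0.00915. In the highest group (0.899 and above), it was -0.0014. That highest group also held more count calls in favour of TUC than against it, with 15.6% of genes higher and 8.94% lower, against 9.99% higher and 13.9% lower in the lowest group.

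No gene was called by the NTR test, so the genes named for NTR were chosen after their values were seen, as those with intervals apart in both letters. Trappc2, a subunit of a vesicle tethering complex, had an NTR of 0.723 (interval 0.656 to 0.781) in TUC A and 0.774 (0.716 to 0.822) in TUC B, against 0.570 (0.5002 to 0.637) in SLAM A and 0.610 (0.538 to 0.678) in SLAM B. The interval of TUC A reached into that of SLAM B, and within each letter they lay apart. Trappc2 overlaps Ofd1. Nars2, a mitochondrial tRNA synthetase, had 0.491 and 0.573 in TUC, against 0.342 and 0.425 in SLAM. Braf, a kinase of the MAPK pathway, had 0.781 and 0.852 in TUC, against 0.588 and 0.788 in SLAM, where SLAM B lay at the level of TUC A. Arsk, Mpp7, Scai, Hectd2, Akap7, Lrch2 and Rp2 completed the 10 with the largest differences among those with TUC higher. All 10 had low counts, at 21.9 CPM or less in each of the 4 libraries.

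**Figure D4:**
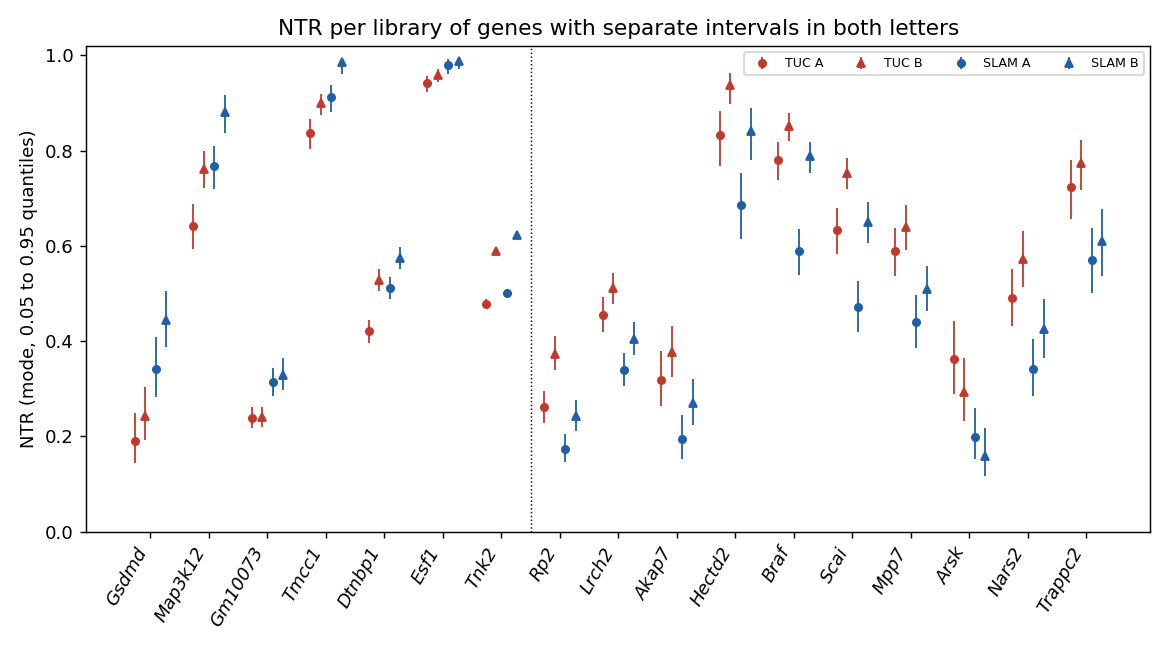
NTR (posterior mode, with bars from the 0.05 to the 0.95 quantile) in TUC A, TUC B (red), SLAM A and SLAM B (blue) for the 7 genes with intervals apart in both letters and TUC lower (left of the dotted line) and the 10 with the largest differences among those with TUC higher (right). Letter B lies above letter A for most genes in both chemistries, by as much as TUC and SLAM differ in several.

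The 7 genes with a lower NTR in TUC were Gsdmd, Map3k12, Gm10073 (a pseudogene in RefSeq), Tmcc1, Dtnbp1, Esf1 and Tnk2. Gsdmd, the pore-forming gasdermin D, had 0.189 (0.143 to 0.249) in TUC A and 0.243 (0.193 to 0.303) in TUC B, against 0.342 (0.282 to 0.409) in SLAM A and 0.445 (0.387 to 0.504) in SLAM B. Map3k12, a kinase of the JNK pathway that overlaps Pcbp2 and Tarbp2, had 0.641 and 0.762 in TUC, against 0.767 and 0.881 in SLAM. Esf1 was near complete turnover, at 0.943 and 0.959 in TUC, against 0.981 and 0.989 in SLAM. In Gsdmd the interval of TUC B reached into that of SLAM A. Counts of Gsdmd, Map3k12, Tmcc1, Dtnbp1 and Esf1 did not pass the test.

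By list, intervals lay apart with TUC higher for 18 of 43 splicing factors, 18 of 79 ribosomal proteins, 10 of 45 matrix genes, 11 of 32 actin genes and 3 of 71 genes of oxidative phosphorylation, with 0 genes of these lists lower. The same held for 7 of 23 cholesterol synthesis genes, 7 of 24 heat shock genes and 5 of 10 fibroblast markers. Over all compared genes the share was 6.59%, and among those with 3000 or more counts 25.4%, so depth moves these counts. The median NTR difference was 0.0202 in splicing factors, 0.0106 in actin genes, 0.0071 in matrix genes, 0.00715 in oxidative phosphorylation and 0.0052 in ribosomal proteins, against 0.00965 over all genes. These medians also vary with the NTR level of a list. Splicing factors had a median NTR of 0.580 in TUC and 0.543 in SLAM. All genes with a mean NTR of 0.469 to 0.688 had a median difference of 0.0190, near that of the splicing factors. Immediate-early genes (median NTR 0.978 in TUC and 0.987 in SLAM) had a median difference of -0.0032 and 0 genes with intervals apart. Over all genes with a mean NTR of 0.899 and above, the median difference was -0.0014 and 0.352% had intervals apart with TUC higher. Srsf1 had an NTR of 0.534 and 0.626 in TUC A and B, against 0.481 and 0.543 in SLAM A and B. Actb had 0.480 and 0.518 in TUC, against 0.422 and 0.467 in SLAM.

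Count and NTR differences went together weakly. Across 9956 genes, Spearman's correlation of the mean log2 CPM ratio and the mean NTR difference (log2 odds) was 0.164. Both quantities come from the same reads, so the letters were also crossed, which leaves no library shared: the count difference of letter A with the NTR difference of letter B gave 0.147, and the count difference of B with the NTR difference of A gave 0.138. With 1000 or more counts in all 4 libraries (4942 genes) the correlation was 0.239. The correlation of the NTR differences of letters A and B was itself 0.160 over all 9956 genes and 0.288 over the 4942 genes.

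**Figure D5:**
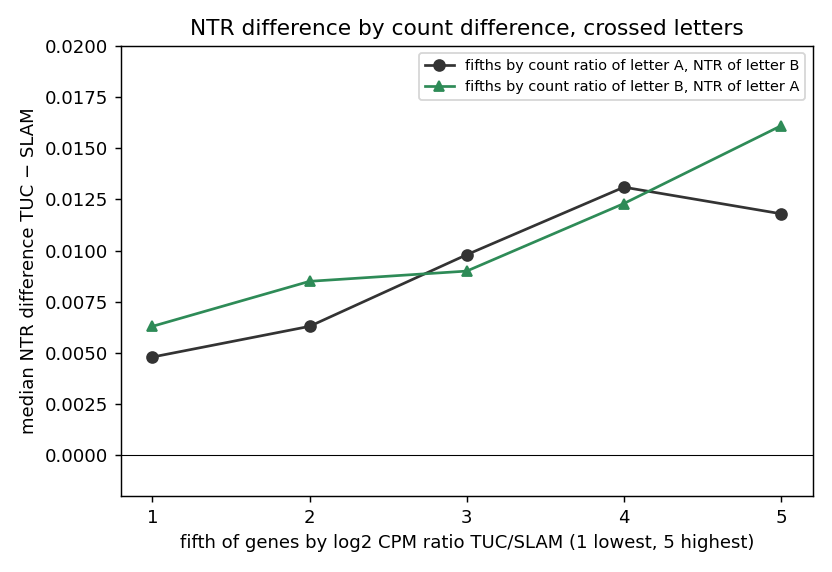
Median NTR difference TUC minus SLAM (y axis) in 5 groups of equal size of 9956 genes by log2 CPM ratio of TUC over SLAM (x axis, 1 lowest to 5 highest), with groups from letter A and NTR from letter B (circles) and the reverse (triangles), so that no library is shared. The medians run between 0.0048 and 0.0161, above 0 in all 5 groups of both splits.

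The plot of NTR differences by count difference shows the same in 5 groups of equal size. Split by the count ratio of letter A, the median NTR difference of letter B was 0.0048 in the lowest group and 0.0118 in the highest, after 0.0131 in the group below it. Split by letter B, the median NTR difference of letter A was 0.0063 in the lowest group and 0.0161 in the highest. In all 5 groups of both splits the median was above 0, the groups with the lowest count ratio included.

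By calls, 192 of 1171 genes with higher counts in TUC (16.4%) had NTR intervals apart with TUC higher, against 68 of 1157 genes with lower counts (5.88%) and 396 of 7628 not called (5.19%). Seen from the NTR side, 29.3% of the 656 genes with higher NTR in TUC were also higher by counts and 10.4% were lower, against 11.8% and 11.6% of all 9956 genes. The median NTR difference was 0.0156 for genes higher by counts and 0.0076 for genes lower by counts, against 0.00915 for genes not called. Median depth was 1408 counts in the lowest library for genes higher, 1321 for genes lower and 888 for genes not called. The part of depth in these shares was not tested. Past 1.5-fold in counts, the shares were close, with 2 of 24 genes higher (8.33%) and 3 of 50 genes lower (6%), and median NTR differences of 0.00373 and 0.0042.

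Among genes with both differences, which were picked after their values were seen, Mzt1, Scai, Pi15 and Osbpl8 were higher by both. Mzt1 had 39.6 and 39.2 CPM in TUC A and B, against 29.5 and 20.4 CPM in SLAM A and B, and an NTR of 0.775 and 0.803 in TUC, against 0.723 and 0.738 in SLAM. Multiplying CPM by NTR gave 30.6 and 31.5 CPM of new Mzt1 RNA in TUC, against 21.3 and 15.01 CPM in SLAM, and 8.91 and 7.74 CPM of old RNA in TUC, against 8.15 and 5.34 CPM in SLAM. Scai, an inhibitor of SRF signalling, had 6.84 and 12.6 CPM of new RNA in TUC, against 4.02 and 7.30 CPM in SLAM, while its old RNA lay between 3.92 and 4.49 CPM in all 4 libraries. With a higher NTR in TUC, which the choice of these genes required, the new part rises relative to the old by arithmetic.

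Zbed5, Hspa4, Col1a1 and Tgfb1 had lower counts and a higher NTR in TUC. Col1a1 had an NTR of 0.153 and 0.202 in TUC A and B, against 0.136 and 0.172 in SLAM A and B. Its new RNA came to 230 and 411 CPM in TUC, against 325 and 591 CPM in SLAM, and its old RNA to 1271 and 1627 CPM in TUC, against 2076 and 2851 CPM in SLAM. In letter A and in letter B both parts were lower in TUC. Hspa4 had an NTR of 0.443 and 0.549 in TUC, against 0.411 and 0.485 in SLAM, with 154 and 142 CPM of new RNA in TUC, against 212 and 248 CPM in SLAM.

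Only 1 gene was lower by both, the kinase Tnk2, with 347 and 374 CPM and an NTR of 0.479 and 0.590 in TUC A and B, against 401 and 404 CPM and an NTR of 0.501 and 0.624 in SLAM A and B. Its count call (log2 fold change -0.16, adjusted p 0.045) was lost without SLAM A, without either TUC library, with library totals and in the fit of the 4 libraries alone. In the fourth class, higher counts with a lower NTR, stood the predicted gene Gm10073, which RefSeq lists as a pseudogene. Gm10073 had 42.0 and 41.0 CPM in TUC, against 25.8 and 16.5 CPM in SLAM. Its NTR was 0.239 and 0.240 in TUC, against 0.314 and 0.330 in SLAM. Reads of such copies can come from their parent genes, so its values are uncertain. Malat1, with the largest count difference of the established genes, had an NTR of 0.363 and 0.369 in TUC, against 0.384 and 0.355 in SLAM, and its NTR groups overlapped. Its intervals lay apart in both letters but in opposite directions, with TUC lower in letter A and higher in letter B.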

How the data were processed

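The authors deposited expected counts per gene and library, not scaled to each other per the file headers and values, which were rounded here. A fraction from 0 to 1 was deposited by the authors as a posterior mode with 0.05 and 0.95 quantiles, per the file headers. It is unnamed there and was taken as the NTR, since it lies near 0 without conversion. The length column was used only to sort genes. The submitters' processing notes name cutadapt, Bowtie2 2.3.0 and STAR 2.7.10b. Genome build, counting tool and strand setting: not given in the sources used here. The 24 columns with the mean and shape of the NTR estimate were not used.

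Genes kept by filterByExpr were scaled by TMM and put through the quasi-likelihood test of edgeR 4.0.16 (R 4.3.3) in 1 fit of 10 libraries with group and letter. The letter was a block because the comparison is defined within letter, and because A minus B differences correlated at 0.583 or more in all 10 pairs of groups. NTR was held within 0.01 to 0.99, turned to log2 odds and fitted with limma 3.58.1. Adjusted p under 0.05 was the threshold. DESeq2 1.42.0, other scalings, filters, read minimums and left-out libraries were alternatives. Scripts were tested on simulated data.

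Genes named by counts were the 10 highest and 10 lowest fold changes among called genes with 10 CPM or more in the higher group, groups that do not overlap, the same sign in both letters and no predicted or pseudogene name. Up to 4 called members were named per list, and reference genes. The members and lists were chosen with earlier results of these data known. Symbols of 15966 genes (93.6%) matched RefSeq's gene table (assembly GRCm38.p6), used for names, gene kinds and overlaps.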

Additional observations from a re-analysis of the deposited data

Results flagged for a closer look

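Libraries outside the comparison also carried a low NTR. The median NTR in unconverted 4sU library A was 0.0194, above the 0.0142 of uridine library A. In unconverted library B it was 0.0177, above the 0.01 of uridine library B. Both unconverted libraries lay above both uridine libraries, and the difference was not tested. The values are small beside the 0.520 to 0.627 of the converted libraries, and close in size to the median difference of 0.00965 between TUC and SLAM.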

How the results depend on the processing

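Of 12218 genes tested by counts, 2458 were called, and 181 past 1.5-fold. Without the replicate block 0 were called (1205 at an unadjusted p under 0.05), and the common dispersion was 0.0187 without the block and 0.00195 with it, so the calls hold within letter only. Leaving out 1 library gave 950 (TUC A) to 2997 (SLAM B) calls. Other scalings, filters, DESeq2 and the fit of 4 libraries gave 1844 to 2598. Library totals raised the share of calls higher in TUC to 54.4%, against 49.8%. Of 101 named genes called by counts, 68 were called in every setting that keeps the block and tested them (Gm42418 was not tested under a minimum of 100 counts). NTR was called for 0 genes as deposited and for 8 with weights from interval widths, 1 relative to the library median. NTR fits that left out 1 library had no block and called 0 to 51 genes, the 43 and 51 without SLAM A and SLAM B, where the letters are unbalanced. Relative to the median they called 0. Comparing each TUC with each SLAM interval left 29 genes, and intervals shifted to common medians left 255. The cause was not tested. The correlation of count and NTR differences was 0.147 and 0.138 with crossed letters, 0.0936 and 0.0991 within letters A and B, 0.145 on the linear scale, 0.207 and 0.239 at read minimums of 500 and 1000, 0.116 by Pearson, and 0.214 for a mean NTR above 0.1 and under 0.9, a range chosen after seeing the data. List counts under each setting were also added after seeing the data. Genes under 100 counts were not compared by NTR.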
